A study of Mus musculus with 20 samples.

Results

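The change of cerebellar gene expression between 2 and 12 months of age in 304Q/304Q mice, a knock-in model of spinocerebellar ataxia type 3, is described here gene by gene and mouse by mouse. Chosen for it were the 5 mice of 2 months and the 5 mice of 12 months that carry the expanded repeat in both Atxn3 alleles, 10 of the 20 libraries in the series, and of 29200 genes in the count table those whose mean over these 10 libraries reached 50 counts were tested, 12251 in all. The study made the knock-in line and followed it from before to after the onset of symptoms, and its sequencing asked what is transcribed differently in the cerebellum by genotype and by age. Each library came from the polyA-enriched RNA of 1 cerebellum. The other 10 libraries came from WT/WT mice, 5 of each age, and serve here as the reference for what the same 10 months do without the expanded repeat.

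All groups share the strain C57BL6/N. The genotype 304Q/304Q is homozygous for an expanded repeat in the mouse Atxn3 gene, WT/WT mice have both alleles unchanged, and no group was treated. Several features limit the model. The repeat was inserted with zinc-finger nucleases and the mice descend from a founder animal. The inserted repeat is an interrupted one, far longer than the repeats that the study gives for patients. The mouse gene's own promoter drives it in every tissue. The sample labels name ataxin-2 for the wild-type allele and a plain CAG repeat, while the study's methods describe Atxn3. Counts per gene do not show the repeat itself, so the genotype could not be read from these values.

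As background, ataxin-3 is a deubiquitinase that is made in all cells, and its expanded form collects in inclusions in neurons of the brainstem and the cerebellum. In the cerebellum, granule cells make up most of the neurons, Purkinje cells send the only output of the cortex, Bergmann glia and other astrocytes support both, and oligodendrocytes form the myelin of the white matter. Microglia, the resident immune cells, clear debris and prune synapses, and in aging brains they and the astrocytes raise the transcription of complement and antigen presentation genes.

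The reads counted on genes were 27636687, 13246385, 13607574, 14234560 and 16606406 in replicates 1 to 5 of the 2-month mice, so that replicate 1 was the deepest. At 12 months they were 13640479, 12820748, 11385380, 13226186 and 13897750. The tested genes took 99.3% of all counts, and 16949 genes were too low to be tested. Values per mouse are given as normalized counts, in which every library is brought to the mean effective size of all 20 by the TMM method. Summed levels of a list of genes are given in CPM, for which each library is scaled to the same fixed total. The spread between mice of a group was small, with a median coefficient of variation of 9.34% at 2 months and 9.14% at 12 months.

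Some libraries stood apart. The 12-month replicate 5 had the lowest median correlation with its own group (0.982, against 0.987 to 0.989 for the other 12-month mice), and on the main axis of variation between the 10 libraries, which carried 27.1% of the variance, it lay at -6.55 beside the 2-month mice, which reached from -8.80 to -3.47, while the other 12-month mice lay between 6.33 and 11.0. This library alone held much RNA of skeletal muscle. Its 13 muscle genes, led by Myh4, summed to 332 CPM, against 3.65 to 5.96 CPM in the other 4 mice of that age. Muscle genes summed to 19.6 CPM in the 2-month replicate 4 and to between 4.40 and 6.11 CPM in the other 2-month mice. Myh4, a myosin of fast muscle fibers, had 1036 normalized counts in the 12-month replicate 5, 61.03 in the 2-month replicate 4 and at most 1.09 in the other 8 mice. RNA of the choroid plexus, the tissue that makes cerebrospinal fluid, was high in 3 of the 10 libraries, 1 of them of 2 months and 2 of 12 months. The 15 choroid plexus genes, led by Ttr, summed to 189.6, 199, 2547, 169 and 147 CPM at 2 months and to 2154, 169, 2001, 130.4 and 143 CPM at 12 months, against 161, 168, 164, 179.7 and 176 and 680.2, 2997, 165, 179 and 1441 CPM in WT/WT mice, where the 3 raised libraries were all of 12 months. On the next axis the 2-month replicate 3, with the high choroid plexus sum, lay at 12.1 and the 12-month replicate 5 at -13.4. Without the 12-month replicate 5, 270 genes were called in place of 271, and 241 of these were the same. With that library and the 2-month replicate 3 both left out, a choice made after seeing the data, 258 were called.

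Markers of the cerebellum were present. All 19 Purkinje cell genes and all 16 granule cell genes of the lists were above the count limit, and Pcp2 had 5037 ± 434 (SD, n = 5) normalized counts at 2 months. Genes of the brainstem such as Hoxb3 were near 0, with a sum of at most 2.95 CPM over 10 genes and none of them above the limit, and 2 of 9 forebrain genes passed it, Ppp1r1b and Neurod6. Genes of lymphocytes and neutrophils summed to between 5.48 and 11.6 CPM over the 10 mice. Blood genes, led by Hbb-bs, summed to 139, 127, 118, 154 and 219 CPM at 2 months and to 108, 104, 104, 96.7 and 112 CPM at 12 months, so that every 12-month mouse lay below every 2-month mouse. The WT/WT sums were 96.1, 106, 228, 133 and 108 and 118, 204, 249.8, 201 and 224 CPM, and the median log2 fold change of 5 blood genes was 0.53 there against -0.54 in 304Q/304Q mice, with the interaction called for 1 of them, Hba-a2 (-1.42). None of the 5 tested blood genes passed the test of age in edgeR or in DESeq2, and 3 of them had an unadjusted p under 0.05. A fit of the 10 libraries alone called 2 of them. The part of blood in other results was not tested. All 10 mice expressed the Y-linked gene Ddx3y, with 689 to 988 normalized counts.

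Atxn3 (chromosome 12 from 101918901 to 101958246 of GRCm38), the gene that carries the repeat, had normalized counts of 158, 189.8, 175, 194 and 241 in the 2-month mice and of 188, 213, 213, 220 and 180.3 in the 12-month mice. The groups overlapped. Its log2 fold change was 0.09, with a standard error (SE) of 0.119 and an adjusted p of 0.783, and every adjusted p in the text comes from the same edgeR fit. In WT/WT mice the log2 fold change was -0.32.

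Age changed the expression of 271 genes in 304Q/304Q mice, 2.21% of those tested. Of these, 163 rose (1.33% of the genes tested) and 108 fell (0.882%). A gene was called when the Benjamini-Hochberg adjusted p of edgeR's quasi-likelihood test was at most 0.05 and the log2 fold change, 12 against 2 months, was at least 0.5 in size, and the words rose, fell and changed are kept for such genes. An adjusted p of at most 0.05 with no limit on the fold change was reached by 899 genes, 7.34% of those tested, 371 of them higher (3.03%) and 528 lower (4.31%) at 12 months. An unadjusted p under 0.05 was reached by 2333 genes, 19.0% of those tested. Most called changes were moderate. The median log2 fold change was 0.74 among genes that rose and -0.63 among those that fell, and 36 genes rose and 9 fell by at least 1 on the log2 scale, a doubling or halving. Protein-coding genes made up 257 of the 271. For 957 genes, 7.81% of those tested, the 5 mice of 12 months all lay above or all below the 5 of 2 months, and they include 213 of the called genes, whose calls rest on these same counts. Over all genes tested the median log2 fold change was -0.01, and the counts and medians of gene lists given further on are to be read beside these figures.

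Some complement genes rose. The complement protein C1q, which tags synapses and debris for removal, has 3 chains, and the genes of all 3 rose, with every older mouse above every younger one. C1qa (chromosome 4 from 136895917 to 136898803) had normalized counts of 259, 234, 245, 302 and 252 in the mice of 2 months and of 619, 696, 760, 638 and 441 in those of 12 months. The lowest 12-month value, in replicate 5, still lay well above the highest 2-month value. Its log2 fold change was 1.29 (SE 0.109, adjusted p = 4.11e-09). C1qb rose by 0.98. C1qc had 194, 242, 217, 199 and 202 and then 386, 455, 518, 399.6 and 347 normalized counts, with no overlap, and was called too. C4b, the complement component downstream of C1q, rose by 2.04, and its counts may include reads of the near-identical gene C4a. Serping1, the inhibitor of C1, rose by 0.76. In the whole list 5 of 10 tested genes rose and none fell, with a median log2 fold change of 0.51.

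Some receptors and signaling proteins of microglia rose with them. Trem2, a lipid receptor of microglia, had 52.4, 43.97, 62.4, 55.9 and 23.8 normalized counts at 2 months and 111, 132, 119.6, 111 and 116 at 12 months. The older mice lay close together and all above the younger ones. Tyrobp, the adaptor through which Trem2 signals, went from 48.2, 52.6, 64.4, 50.9 and 50.3 to 115, 117, 118, 117 and 103 normalized counts, again with no overlap. Trem2 rose by 1.31 (SE 0.201, adjusted p = 5.97e-05) and Tyrobp by 1.10 (SE 0.158, adjusted p = 2.47e-05). Among 17 tested genes of the list for disease-associated microglia, a state described in models of neurodegeneration, 7 rose and none fell (median 0.31). The largest rises in it were those of Lyz2, a lysozyme (1.61), and Gpnmb, a membrane glycoprotein of phagocytes (1.39). Gpnmb had 66.7, 37.5, 66.5, 45.8 and 38.8 normalized counts at 2 months and 163, 168, 109.6, 103 and 133 at 12 months. Apoe, the most abundant member, missed the limit on the fold change at 0.27, and Fth1, for ferritin, did not pass (adjusted p = 0.995).

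Some genes of the homeostatic state, which mark microglia at rest, rose too. Of 12 tested members 5 rose and none fell, with a median of 0.46. Cx3cr1, the receptor for the neuronal chemokine fractalkine, had 187, 179, 167, 195 and 189 normalized counts at 2 months and 301, 318, 311, 238 and 243 at 12 months. Replicates 4 and 5 were the lowest of the older mice and stayed above all younger ones. Its log2 fold change was 0.62, and those of Laptm5 and Olfml3 were 0.77 and 0.64. Selplg (0.58) lost its call without the 2-month replicate 3 (0.49) or the 12-month replicate 3 (0.48). Csf1r, the receptor on which microglia depend for survival, had a log2 fold change of 0.35 and missed the limit on its size. The 15 genes of this list summed to 131, 135, 130.4, 140.5 and 140.3 CPM in the 2-month mice. In the 12-month mice they summed to 189.5, 207, 204, 184 and 177 CPM, all above the younger ones. In bulk RNA more or fewer cells of a type and more or less RNA per cell cannot be told apart, here and for every cell type that follows.

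A few lysosomal genes rose as well. Of 30 tested lysosomal genes 5 rose, such as Ctss, Cd68, Laptm5 and Ctsz, and none fell (median 0.13). The protease gene Ctss had 264, 293, 305, 326 and 353 normalized counts at 2 months. At 12 months it had 688, 765, 775, 688 and 661. All older mice lay far above the younger ones, with a log2 fold change of 1.22 (SE 0.0886, adjusted p = 2.59e-10). Cd68, a membrane protein of phagocyte lysosomes, rose by 1.01. Psap, the most abundant gene of the list, had a log2 fold change of -0.02 and was not called.

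Interferon-response genes made up the list with the highest share of called members. Of 18 tested genes 13 rose and none fell, and the median was 0.74. The list's summed level was 221, 253, 248, 248 and 251 CPM in the 2-month mice and 292, 421, 338, 379 and 292 CPM in the 12-month mice. Replicates 2 and 4 were the highest of the older mice, replicates 1 and 5 the lowest, and all 5 lay above the younger mice. Irf7, a transcription factor that amplifies interferon production, had 51.3, 66.5, 32.2, 61.03 and 45.9 normalized counts at 2 months and 117, 238, 183, 184 and 113 at 12 months, with no overlap and a log2 fold change of 1.70 (SE 0.218, adjusted p = 5.13e-06). Ifit1, which binds foreign RNA, had 40.5, 48.3, 34.3, 48.8 and 41.5 and then 63.7, 139, 112, 161 and 70.1 normalized counts. Its spread among the older mice followed that of the list, with replicates 1 and 5 lowest, and it rose by 1.35 (SE 0.246, adjusted p = 0.00047). Ifit3, which shares sequence with Ifit3b, rose by 1.07 and Lgals3bp by 1.29. Oasl2 rose by 1.14 with overlapping groups and lost its call without the 2-month replicate 1 (1.06) or 3 (1.06), or without the 12-month replicate 2 (0.94) or 4 (1.06). The 5 members that were not called were Ifih1 (0.55), Irf9 (0.42), Xaf1 (0.34), Gbp2 (0.32) and Stat2 (-0.17).

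Some genes of antigen presentation rose as well. MHC class I molecules show peptides from inside the cell to T cells, and 4 of 8 tested genes of that list rose and none fell (median 0.53). B2m, the light chain they share, had 1486, 1762, 1590.3, 1691 and 1847 normalized counts at 2 months. In the older mice it had 2469.5, 2702, 3264, 2639.6 and 2171, with replicate 3 highest and replicate 5 lowest but above all younger mice. B2m rose by 0.66 (SE 0.0857, adjusted p = 1.16e-05), the peptide transporter Tap2 by 1.06, and the heavy chains H2-K1 and H2-Q4, whose reads may be shared with other heavy chain genes, by 0.71 and 0.99. Cd74, the chaperone of MHC class II, rose by 1.15 and was 1 of 2 class II genes with enough counts to be tested. Zc3hav1, an antiviral protein outside the lists that binds viral RNA, rose by 1.36, from 182, 237, 199.6, 177 and 176 to 423, 523, 473, 519 and 549.9 normalized counts.

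Promoters of these genes were read for the letters to which interferon-activated transcription factors are known to bind. The motif searched was GAAANNGAAA, where N is any base, or TTTCNNTTTC, which is the same motif on the other strand, in windows of 300 bases, 250 before and 50 after each gene's start, from RefSeq on build GRCm38.p6. Of all 32851 promoter windows 1131 held it, 3.44%. Counted by gene, since some genes have more than 1 window, the share was 3.99%, and among tested genes it was 3.45%. Of the 13 interferon-response genes that rose 10 were in the promoter table and 6 of them held the motif (Ddx58, Eif2ak2, Gbp3, Ifit1, Ifit3 and Ifitm3), while Ifit2, Irf7, Lgals3bp and Oasl2 did not. Of the 5 list members that were not called, all in the table, 3 held it too (Gbp2, Ifih1 and Stat2), the same share as among those that rose. Among the other genes that rose 12 of 105 held it (11.4%), some with known roles in immunity, such as B2m, Ctss, Irgm1, Irgm2, Lgals9, Parp4 and Psme1, and others without, such as Celf6, Nectin4, Plcd3 and Sqor. Of 73 genes that fell and were in the table, 0 held it. A match is a run of letters and not a measured site. The stretches of 80 bases that follow lie before the gene start, read 5′ to 3′ on the gene's own strand, and are shown because they place the matches of genes from 4 functions side by side, with the motif in capitals. They come from Ifit1 (chr19:34640750-34640829, + strand), Gbp3 (chr3:142559964-142560043, + strand), B2m (chr2:122147513-122147592, + strand), Ctss (chr3:95526706-95526785, + strand) and Irgm1 (chr11:48871421-48871500, - strand), the gene of a GTPase that acts against microbes inside cells and that rose by 1.19.
Ifit1: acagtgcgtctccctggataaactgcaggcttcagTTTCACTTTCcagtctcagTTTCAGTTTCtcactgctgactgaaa
Gbp3: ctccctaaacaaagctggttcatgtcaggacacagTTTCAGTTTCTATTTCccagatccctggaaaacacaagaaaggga
B2m: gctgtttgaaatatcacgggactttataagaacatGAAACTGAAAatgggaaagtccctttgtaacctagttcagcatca
Ctss: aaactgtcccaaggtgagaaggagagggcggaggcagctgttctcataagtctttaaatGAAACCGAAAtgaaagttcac
Irgm1: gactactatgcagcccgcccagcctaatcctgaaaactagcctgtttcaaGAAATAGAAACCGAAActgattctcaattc
Ifit1 and Irgm1 each hold 2 matches, those of Irgm1 overlapping, and Gbp3 holds 2 overlapping ones. In Ctss the match begins 21 bases before the gene start and in B2m 139 bases before it.

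**Figure D1:**
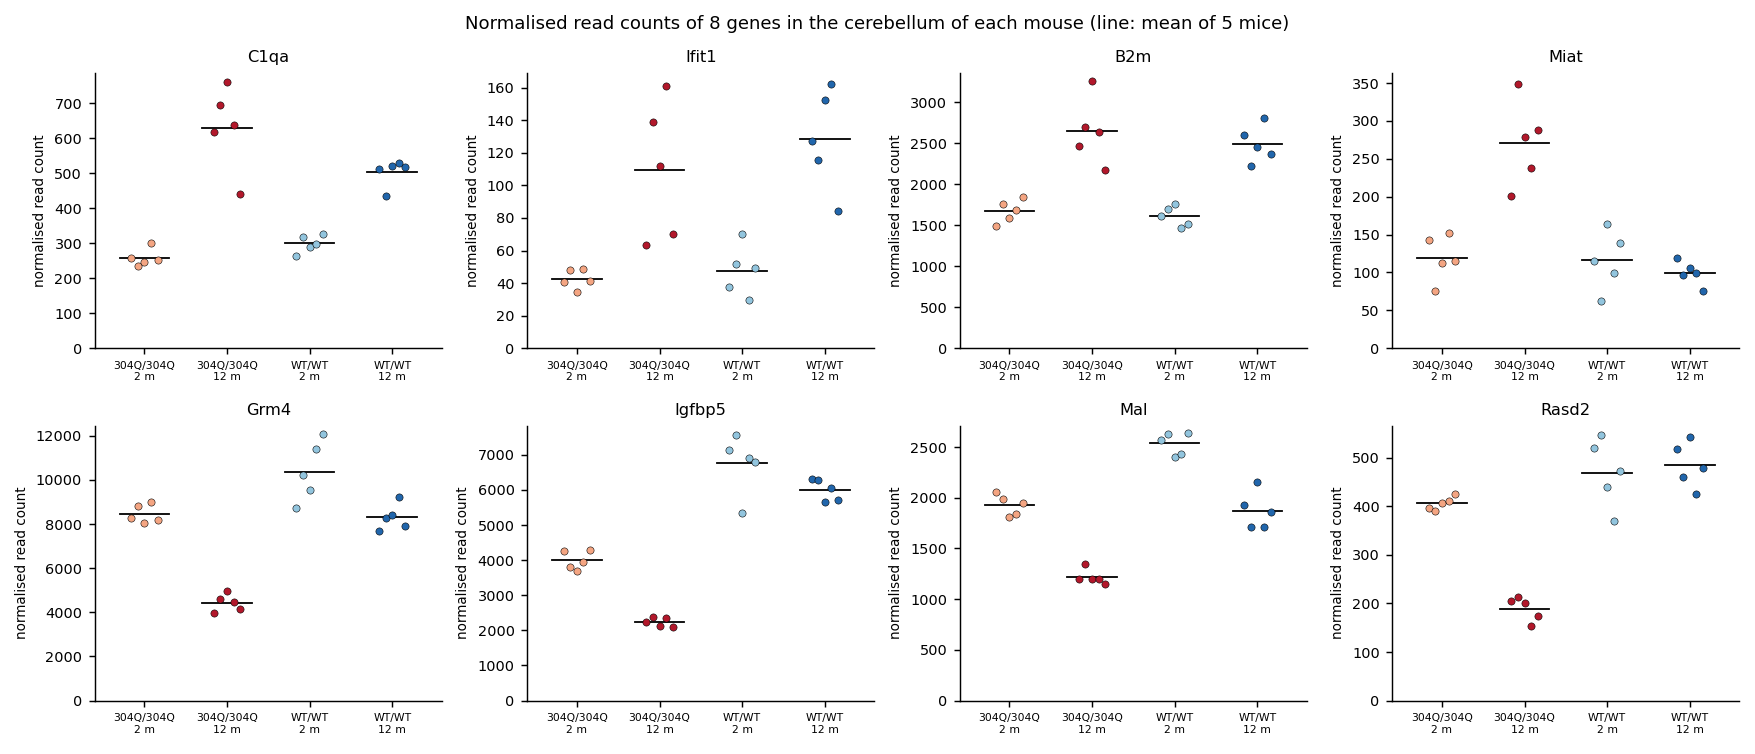
Normalized counts per mouse on a linear axis from 0, with each of the 20 mice as a point and the mean of 5 mice as a line, for genes described in the text. The 12-month 304Q/304Q points of C1qa lie between 441 and 760 and the 2-month points between 234 and 302.

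Astrocytes gave a mixed picture, with some reactive genes up and supporting genes at or below their earlier level. Of 15 tested genes of reactive astrocytes 3 rose, C4b, Serpina3n and Serping1, and none fell (median 0.33). Without the 2-month replicate 2 the count was 5. Serpina3n, a secreted protease inhibitor, had 49.8, 63.3, 44.7, 56.97 and 45.9 normalized counts at 2 months and 89.4, 136, 136, 83.8 and 108 at 12 months, without overlap (log2 fold change 1.09, SE 0.210, adjusted p = 0.000914). Gfap, the intermediate filament of astrocytes, passed the adjusted p but had a log2 fold change of 0.48, just under the limit. In the list of astrocytes and Bergmann glia Fabp7, a lipid carrier of radial and Bergmann glia, fell by 0.57, 1 of 18 tested genes, and by 0.67 in WT/WT mice. Another 7 passed the adjusted p alone with negative fold changes, among them Gdf10 (-0.48), a marker of Bergmann glia, the neurotensin receptor Ntsr2 (-0.39), the potassium channel Kcnj10 (-0.30) and the glutamate transporter Slc1a3 (-0.23). The summed level of the list was 7831, 7677, 7389, 7344 and 7968 CPM at 2 months. At 12 months it was 6714, 6868, 6852, 6910.1 and 6752 CPM, below every younger mouse. The median log2 fold change of the list was -0.18 in 304Q/304Q mice and 0.03 in WT/WT mice.

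Some myelin genes fell. In the list of myelinating oligodendrocytes 9 of 28 genes fell and none rose, with a median of -0.25. They include Mog, Ugt8a, Mal, Fa2h, Gsn, Cldn11, Gal3st1 and Mobp. Among them Ugt8a, Fa2h and Gal3st1 make the galactolipids of myelin, which Ugt8a builds from ceramide, Fa2h hydroxylates and Gal3st1 sulfates. Mal, a proteolipid that sorts myelin cargo, had 2059.8, 1989.5, 1806, 1841 and 1944 normalized counts at 2 months and 1202, 1349.8, 1201, 1197 and 1146 at 12 months. Fa2h had 837, 829, 782, 747 and 752 and then 439, 635, 559, 457 and 453. In both genes every older mouse lay below every younger one, and the older replicate 2 was the highest of its group. Mal fell by 0.66 (SE 0.0621, adjusted p = 2.65e-08) and Fa2h by 0.64 (SE 0.0854, adjusted p = 1.01e-05). Mog, a protein on the outer face of myelin, fell by 0.72 and Ugt8a by 0.72. Mbp, the myelin basic protein gene, had 40576, 41870, 37282, 36520 and 35659 normalized counts at 2 months and 30635, 37969, 37243, 26603 and 29194 at 12 months. Replicates 1, 4 and 5 of the older mice were low and replicates 2 and 3 nearer to the younger mice. The groups overlapped in it, and it was not called (-0.25, adjusted p = 0.0884).

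The number of myelin genes called rested in part on the libraries with the lowest values. It was 5 without the 12-month replicate 5, which also stood apart by its muscle RNA, and 6 without replicate 4, while the median without replicate 5 was -0.20. Mobp had a log2 fold change of -0.53 and lost its call without the 12-month replicate 4 (-0.48) or 5 (-0.47). Mal, Fa2h, Mog, Ugt8a and Gsn were called in every alternative run. Of the 28 genes of the list 25 had negative fold changes, and 12 passed the adjusted p alone, all of them lower. Some lay near 0 or above it. The log2 fold change was -0.07 for Myrf, the factor that switches on myelin genes, -0.04 for the carbonic anhydrase Car2, -0.04 for transferrin and 0.13 for Apod. Of 20 tested genes of precursors and newly formed oligodendrocytes 1 fell, Gpr17, a receptor of cells about to myelinate, by 0.70 in 304Q/304Q and by 1.22 in WT/WT mice. The precursor list's median was -0.10. Cholesterol synthesis, which myelin needs, had 0 of 21 tested genes called by edgeR, 11 with an unadjusted p under 0.05, and at most 1 called in any alternative, DESeq2 included. In that list 6 genes passed the adjusted p alone, all of them lower at 12 months, such as Cyp51 (-0.49) and Sqle (-0.45), and the median was -0.17.

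Purkinje cell genes were lower at 12 months by small amounts. No gene of this list was called by edgeR or by DESeq2, since no log2 fold change reached the limit, but 14 of 19 had an unadjusted p under 0.05 (19.0% of all genes did) and 11 of 19 passed the adjusted p alone, all 11 of them lower. The list's median log2 fold change was -0.23, against 0.03 in WT/WT mice. Rgs8, a regulator of G protein signaling in Purkinje cells, had 21362, 22876, 21605, 21414 and 22315 normalized counts at 2 months. At 12 months it had 17747, 15880, 14736, 15608 and 16378. The ages did not overlap, and its log2 fold change was -0.45 (SE 0.0405, adjusted p = 1.27e-08). The calcium buffer Calb1 stood at -0.29, the scaffold Homer3 at -0.29 and the phosphatase inhibitor Ppp1r17 at -0.29. Itpr1, the calcium release channel and most abundant gene of the list, had a log2 fold change of -0.23 with an adjusted p of 0.0526 and overlapping ages. Summed over 19 genes the level was 10368, 11083, 10324, 10622 and 11316 CPM in the younger mice. It was 9099.6, 8890.4, 8522, 9270.1 and 9125 CPM in the older ones, all 5 below the lowest younger mouse. In WT/WT mice the sums were 12135, 11259, 11262, 11041 and 10813 CPM at 2 months and 11572, 11493, 11032, 10609 and 10918 CPM at 12 months, and these overlapped.

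Granule cells showed a single large fall. Grm4, the metabotropic glutamate receptor on the terminals of parallel fibers (chromosome 17 from 27422387 to 27521403), had 8266, 8842, 8069, 8983 and 8180 normalized counts at 2 months and 3968, 4600.2, 4965, 4459 and 4162 at 12 months. All older mice lay far below all younger ones, and the spread within each age was narrow. The fall was 0.93 on the log2 scale (SE 0.0742, adjusted p = 6.98e-09). Grm4 was the 1 called gene among 16 of the granule cell list and among 23 glutamate receptor genes. The remaining granule cell genes were not called. Their log2 fold changes were, for example, -0.23 for Cbln1, which ties parallel fibers to Purkinje cells, and -0.14 for its partner Cbln3. The list's median was -0.14 in 304Q/304Q and -0.21 in WT/WT mice. Of its 16 genes 10 had an unadjusted p under 0.05, and 6 passed the adjusted p alone, all of them lower. The list summed to between 10064 and 11246 CPM at 2 months and to between 9119 and 10036 CPM at 12 months. In WT/WT mice the sums were 11236 to 11646 and 9508 to 10199 CPM, also without overlap. Among the glutamate receptors 7 passed the adjusted p alone, all of them lower, with the kainate receptor genes Grik4 (-0.46), Grik1 (-0.32) and Grik3 (-0.30) below the AMPA receptor genes Gria3 (-0.26), Gria4 (-0.19) and Gria1 (-0.18). Of 13 genes of inhibitory interneurons 0 were called by edgeR or DESeq2 and 5 had an unadjusted p under 0.05. The parvalbumin gene Pvalb, which Purkinje cells express too, had a log2 fold change of -0.28 and the glycine transporter Slc6a5 of -0.39. Eomes, the marker of unipolar brush cells, had 584, 284, 469.8, 310.3 and 347 normalized counts at 2 months and 130.5, 148, 174, 169 and 247 at 12 months. It did not pass the adjusted p (-1.21, adjusted p = 0.163) although the ages did not overlap, and a fit of the 10 libraries alone called it.

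**Figure D2:**
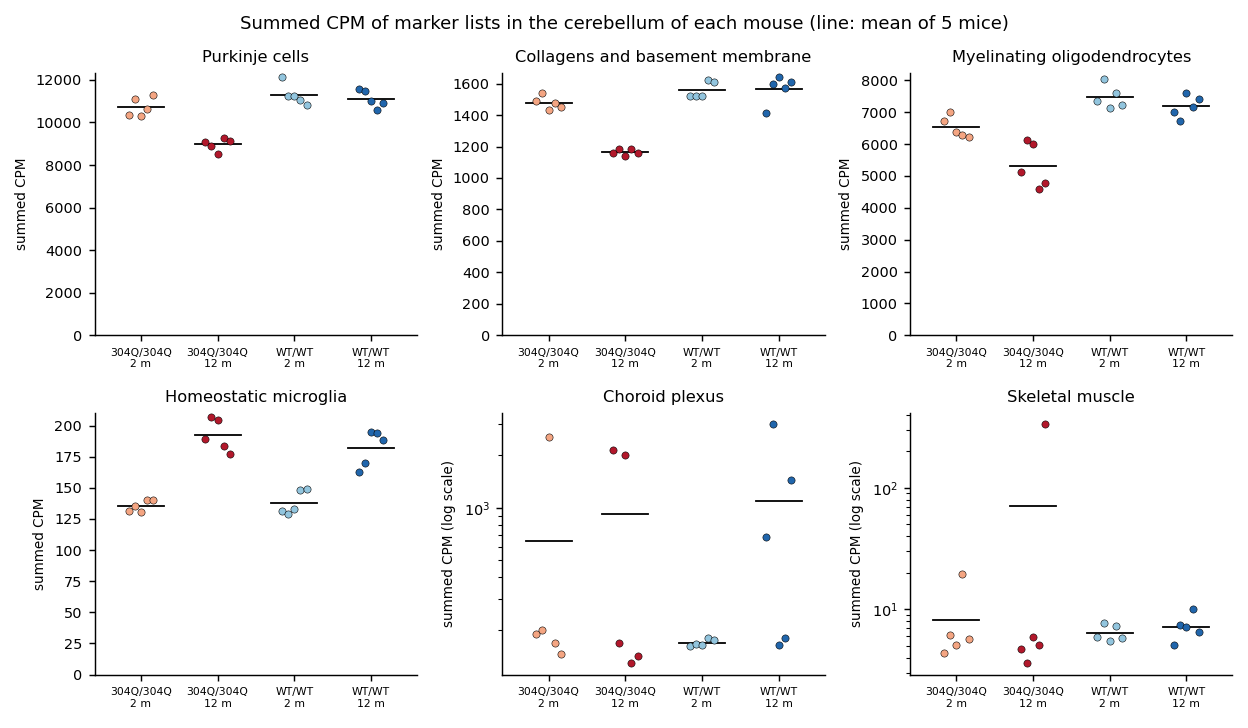
Summed CPM of the genes of each list in each of the 20 mice, with the axis of each panel starting at 0 unless it is marked as logarithmic. The Purkinje cell sums of the 12-month 304Q/304Q mice lie between 8522 and 9270 and those of the 2-month mice between 10324 and 11316.

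Some genes of the extracellular matrix were lower in the older mice. Of 23 tested genes for collagens and the basement membrane, the sheet that surrounds vessels and covers the brain surface, 2 fell and none rose, and 7 passed the adjusted p alone, all of them lower. Nid1, which links laminins to collagen IV, fell by 0.60 (SE 0.0957, adjusted p = 9.69e-05) and Col5a2 by 0.70 (SE 0.186, adjusted p = 0.0177). Col5a2 lost its call without the 2-month replicate 5 (-0.60) or the 12-month replicate 3 (-0.64). The list's count was 1 without the 12-month replicate 3, 3 without replicate 2 and 4 without replicate 4. Sparc, a matrix protein of astrocytes and endothelium and the most abundant of the list, had 13233, 13230, 12266, 12584 and 12327 normalized counts at 2 months and 10094, 9344, 9512, 9816 and 8895 at 12 months. Its log2 fold change of -0.42 stayed under the limit although the ages were far apart. The summed level of the list was 1491, 1540, 1432, 1475 and 1451 CPM at 2 months and 1158, 1183, 1142, 1184 and 1156 CPM at 12 months, against 1522, 1519, 1520.5, 1625 and 1608 and 1413, 1596, 1641, 1569 and 1610.3 CPM in WT/WT mice. The 304Q/304Q sums, in which Sparc weighs most, fell into separate narrow bands by age, while those of WT/WT mice overlapped. Gene by gene the list was also lower in older WT/WT mice, where 3 genes fell, Nid1 by 0.81, Col3a1 by 0.76 and Col4a1 by 0.60. The median there was -0.14, or -0.24 with the GC trend removed, and the median interaction was 0.01, with 2 genes called, Col5a1 (-0.72) and Col18a1 (-0.52). Outside this list Col23a1, a membrane collagen, had 307, 316, 345, 295 and 313 normalized counts at 2 months and 129, 107, 118, 128 and 126 at 12 months, a fall of 1.37 (SE 0.112, adjusted p = 2.24e-09), against 1.06 in WT/WT mice, and Col13a1 fell by 0.81. Of 24 endothelial and mural genes 1 fell, Mfsd2a, the transporter of omega-3 lipids across the barrier, by 0.79, and the median of the list was -0.07.

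The largest rise of all was that of Onecut2, a transcription factor of developing neurons and endocrine cells (chromosome 18 from 64340020 to 64400987). It had 48.2, 55.8, 60.3, 52.9 and 67.1 normalized counts at 2 months and 262, 320.1, 285, 389.9 and 356 at 12 months, a log2 fold change of 2.51 (SE 0.209, adjusted p = 2.74e-09). In WT/WT mice the 12-month counts were 38.02, 39.6, 15.01, 29.1 and 37.7, in the range of the younger mice. Fam163b, a membrane protein of unknown role, rose by 2.32, with 381, 386, 389.8, 316 and 384 normalized counts at 2 months and 1869, 1881, 1840.2, 2079.9 and 1602 at 12 months. Cda, which deaminates cytidine, rose by 2.02, and Tpbg, a membrane protein that dampens Wnt signaling, by 1.74. Comp, a matrix protein known from cartilage, had 79.05, 40.8, 81.1, 61.03 and 52.97 and then 153, 222, 187, 183 and 223 normalized counts and rose by 1.61. Resp18, a protein of secretory granules, had 166, 183, 184, 159.7 and 139 and then 445, 423, 449.8, 394 and 387 and rose by 1.34. In each of these genes all 12-month mice lay above all 2-month mice. The macrophage gene Mpeg1, for a pore-forming protein, rose by 1.35, Cmtm7 by 1.36 and the transporter gene Abca8a by 1.33. Unlike Onecut2, the other genes of this paragraph rose in WT/WT mice too. The rises there were 1.77 for Fam163b, 1.61 for Tpbg, 1.19 for Comp and 1.10 for Cmtm7. For Abca8a, Cda, Mpeg1 and Resp18 they were 1.01, 0.94, 0.92 and 0.86.

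Falls of similar size were fewer. Necab3, for a calcium-binding protein of neurons, had 489, 421, 501, 448 and 368 normalized counts at 2 months and 160.2, 160, 176, 140.5 and 144 at 12 months and fell by 1.52 (SE 0.105, adjusted p = 1.73e-10). Rasal1, which switches off Ras, had 224, 167, 161, 221 and 251 and then 65.7, 83.9, 56.1, 55.5 and 46.1 normalized counts. The noncoding RNA Mirt1 had 122, 113, 129, 141 and 115 and then 55.5, 39.7, 42.4, 44.6 and 23.04. In all of these genes the older mice lay below the younger ones, and the 12-month replicate 5 was the lowest for Rasal1 and Mirt1. Smaller falls were those of the protease-like gene Prss35 (-1.23), Lzts1 (-0.85) and Ramp3 (-0.81), which modifies peptide hormone receptors. Ctxn1 (-0.86) lost its call without the 2-month replicate 3 (-0.69). In WT/WT mice Necab3 fell by 1.13, Prss35 by 0.96, and Rasal1, Lzts1 and Ramp3 by 0.58 each. Mirt1 (-0.22) and Ctxn1 (-0.40) were not called there.

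Several abundant genes changed by less than 1 on the log2 scale. Fam107a, an actin-binding protein of astrocytes and neurons, had 17144, 18104, 16803, 16418 and 19317 normalized counts at 2 months and 12548, 9837, 11618, 13599 and 10232 at 12 months, and it fell by 0.60 (SE 0.0777, adjusted p = 2.54e-05). Nrep, a small protein of growing and regenerating neurons, had 12819, 11790, 12139, 12868 and 13550 and then 8922, 8152, 8901, 8757 and 7813. It fell by 0.57, and by 0.54 in WT/WT mice. The noncoding RNA Snhg11 of neurons rose by 0.68, from 11097, 9179.5, 11337, 14886 and 12572 to 15796, 21504, 18826, 18912 and 19676. Sema5a, an axon guidance protein, rose by 0.57, and Utrn, the relative of dystrophin, by 0.54. Utrn lost its call without the 12-month replicate 5, at 0.49, close to the limit.

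Set beside WT/WT mice, part of the aging was shared and part differed. In WT/WT mice 295 genes changed between the same ages (2.41% of those tested), 162 upward (1.32%) and 133 downward (1.09%). Genes called in both genotypes numbered 99, which is 36.5% of the 304Q/304Q and 33.6% of the WT/WT genes, and 97 of them changed in the same direction. The difference between the age changes, tested as an interaction, was called for 107 genes (0.873%), 42 higher (0.343%) and 65 lower (0.531%) in the 304Q/304Q mice relative to WT/WT. Of the 172 genes that changed in 304Q/304Q mice and were not called in WT/WT mice, 31 passed this test. The WT/WT age changes followed the base composition of genes. Across 12236 genes, which are not independent replicates, the Pearson correlation between GC content and log2 fold change was 0.0161 in 304Q/304Q mice, against 0.428 in WT/WT mice. With that trend removed from each library 222 genes were called in WT/WT mice, 287 in 304Q/304Q mice and 98 in the interaction, 51 higher and 47 lower. The WT/WT count was 565 (236 upward and 329 downward) and that of the interaction 237 (134 higher and 103 lower) without the 12-month WT/WT replicate 1, and the interaction count was 173 (91 higher and 82 lower) without the 2-month 304Q/304Q replicate 5. The balance between higher and lower calls thus turned in both tests without the 12-month WT/WT replicate 1. In the interaction test it also turned without the 2-month 304Q/304Q replicate 5 and with the GC trend removed. Without the 12-month WT/WT replicate 1, where more genes were called, 286 of the 295 WT/WT calls and 105 of the 107 interaction calls were shared with the main fit. With the GC trend removed, 186 of the WT/WT calls and 77 of the interaction calls were shared.

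Some immune genes rose with age in both genotypes. In WT/WT mice 14 of 18 interferon-response genes rose (median 0.84), as did 5 of 10 complement genes (0.47), 5 of 8 MHC class I genes (0.69), 4 of 17 genes of disease-associated microglia (0.35) and 4 of 12 of homeostatic microglia (0.43), where 1, Fcrls, fell by 0.81. In the fit reported no gene of these lists or of MHC class II passed the interaction test, but some were close to it. The interaction was 1.14 for Fcrls (adjusted p = 0.0527), 1.11 for Gpnmb (SE 0.304, adjusted p = 0.0526), which changed by 1.39 in 304Q/304Q mice with 0.28 in WT/WT mice, and 0.54 for C1qa (adjusted p = 0.0636), which rose in both, by 0.75 in WT/WT mice. DESeq2 called all 3 and Lyz2 (0.80), and edgeR with the GC trend removed called Gpnmb (1.14) and C1qa (0.65), so these calls depend on the fit. Among Purkinje cell genes the interaction was called for 3 of 19, all lower in 304Q/304Q mice, against 0.531% of all genes tested, namely Pcp2 (-0.65), Pcp4 (-0.68) and Skor2 (-0.60). By the adjusted p alone 10 of 19 passed it with lower values, against 1.38% of all genes. In the myelin list 9 genes fell in 304Q/304Q mice and 1, Ugt8a, in WT/WT mice, but the interaction was called for none of the 9. By the adjusted p alone it was lower for 3 genes of the list, Mobp (-0.48) and Fa2h (-0.46) among them, and with the GC trend removed Mobp passed still (-0.44) and Fa2h did not (-0.38). The 1 call in that list was Hapln2 (interaction -0.63), a link protein of the nodes of Ranvier, with log2 fold changes of -0.18 in 304Q/304Q and 0.45 in WT/WT mice.

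Opposite directions in the genotypes were seen for Syt16, of the synaptotagmin family (chromosome 12 from 73997661 to 74273267). Its normalized counts in 304Q/304Q mice were 46.2, 48.3, 50.9, 49.8 and 68.9 at 2 months and 72.9, 87.2, 94.7, 82.8 and 107 at 12 months, and in WT/WT mice 80.2, 52.5, 74.7, 54.2 and 52.3 and 20.1, 26.7, 41.8, 50.1 and 41.1. In neither genotype did the ages overlap, and the younger 304Q/304Q replicate 5 was the highest of its group. Syt16 rose by 0.75 in 304Q/304Q mice and fell by 0.79 in WT/WT mice, an interaction of 1.55 (SE 0.298, adjusted p = 0.00344), but its rise lost its call without the 2-month replicate 1 (0.70) or the 12-month replicate 5 (0.68). The noncoding RNA Miat, which gathers in the nuclei of neurons, rose by 1.17 in 304Q/304Q mice, from 143, 75.1, 112, 153 and 116 to 201, 349, 279, 238 and 287 normalized counts, with -0.23 in WT/WT mice. Itgav, for an integrin chain, rose by 0.51 with overlapping ages, a call lost in 8 of the 10 fits that left out a library, with the lowest value of 0.42 without the 2-month replicate 1. Tirap (0.77), an adaptor of Toll-like receptors, lost its call without the 12-month replicate 1 (0.72) or 3 (0.71).

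Some falls of single genes differed from WT/WT mice by the interaction test. Rasd2, a GTPase of the Ras family that is rich in striatum and hormone responsive, had 396, 390.4, 407, 412 and 425 normalized counts at 2 months and 205, 213, 201, 154 and 173 at 12 months. No older mouse came near the younger ones, and the fall was 1.10 (SE 0.105, adjusted p = 3.19e-08). WT/WT mice had 0.05, and the interaction was -1.15 (SE 0.144, adjusted p = 2.5e-05). Il20rb, a cytokine receptor chain, had 353, 204, 367, 362 and 339 and then 147, 179, 156, 164 and 251 normalized counts, overlapping because the younger replicate 2 was low and the older replicate 5 high. It fell by 0.86, with 0.47 in WT/WT mice. Plk5, a kinase-like protein of neurons and glia, fell by 0.59, with 0.44 in WT/WT mice. Dusp5, a phosphatase of the kinase ERK, fell by 0.99 with overlapping ages and 0.25 in WT/WT mice. For Grm4 the interaction was -0.61 and -0.50 with the GC trend removed, just under the limit, and Dusp5 and Muc15 lost the interaction call in that fit too. Ptk2b, a calcium-activated kinase, rose in both genotypes, by 0.75 in 304Q/304Q and by 1.62 in WT/WT mice.

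Of 15 tested genes of neurotrophins and the IGF system 3 were called. Igfbp4 and Igfbp5 encode proteins that bind IGF outside the cell, and they went in opposite directions. Igfbp4 had 205, 171, 191, 186 and 322 normalized counts at 2 months and 490, 453, 523, 521 and 615 at 12 months. The younger replicate 5 was high for its group and still under all older mice. Igfbp4 rose by 1.27 (SE 0.135, adjusted p = 2.28e-07), with an interaction of 1.02. Igfbp5 had 4266, 3812, 3687, 3955 and 4302 normalized counts in the younger mice and 2227, 2373, 2114, 2352 and 2102 in the older ones. It fell by 0.84 (SE 0.0686, adjusted p = 2.24e-09), with an interaction of -0.67. Ntf3, a neurotrophin, fell by 0.92, a call that was lost in 4 of the fits that left out a library, without the 2-month replicate 1 (-0.88) or 5 (-0.82) and without the 12-month replicate 2 (-0.77) or 3 (-0.75).

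The immediate early genes, which follow activity, differed between mice of the same age. They summed to 713, 511, 657, 298 and 759.8 CPM at 2 months and to 731, 325, 491, 339.6 and 878 CPM at 12 months. Both ages held high and low mice, and 1 of 19 tested genes rose, Ier5, by 0.77. Clock genes held 1 fall among 18, that of Dbp, whose transcription cycles strongly over the day, with 1025, 757, 878, 1027 and 1022 normalized counts at 2 months and 626, 555, 635, 619.6 and 634 at 12 months. The ages did not overlap, and Dbp fell by 0.62 (SE 0.0934, adjusted p = 4.71e-05), with an interaction of -0.78. Glucocorticoid-responsive genes held 2 falls among 16, Mt2, a metallothionein (-0.65), and Cdkn1a, an inhibitor of the cell cycle (-0.64). Mt2 lost its call in 5 of the 10 fits that left out a library, namely the 2-month replicates 1 (-0.62) and 5 (-0.58) and the 12-month replicates 2 (-0.59), 4 (-0.64) and 5 (-0.60). Cdkn1a was also the 1 called gene among 13 of p53 and senescence.

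Clustered protocadherins, cell surface proteins that let neurons tell their own branches from others, changed in both directions, with 9 of 41 tested genes higher and 4 lower. Among the beta genes Pcdhb9 rose from 208, 216, 245, 215 and 224 to 338, 365, 394, 371 and 329.6 normalized counts, with no overlap (log2 fold change 0.70, SE 0.0971, adjusted p = 1.57e-05). Pcdhb13 rose by 0.71. Pcdhb8 (0.76) lost its call without the 2-month replicate 3 (0.63) or the 12-month replicate 4 (0.68). In the gamma cluster Pcdhga9 (0.90) and Pcdhga3 (0.78) rose, while Pcdhga1 (-0.67) and Pcdhga7 (-0.61) fell. The gamma genes share their last exons, and the genes of the cluster lie within each other in the annotation, so that these counts are uncertain.

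Protein quality control, the process in which ataxin-3 itself acts, showed little change with age. Of 35 tested proteasome genes 0 were called by edgeR or DESeq2 and 1 had an unadjusted p under 0.05, with a median log2 fold change of 0.01. Of 23 autophagy genes 0 were called by either tool and 2 had an unadjusted p under 0.05 (median -0.01). Genes of the unfolded protein and integrated stress response gave 0 called of 14 by either tool and 0 with an unadjusted p under 0.05, with medians of -0.02 in 304Q/304Q and 0.28 in WT/WT mice. Among 12 heat shock genes 0 were called by either tool and 3 had an unadjusted p under 0.05. Of 16 partners of ataxin-3 and genes that segregate ubiquitinated proteins 0 were called by either tool and 4 had an unadjusted p under 0.05. Uchl1, a deubiquitinase of neurons, passed the adjusted p alone at 0.38, Ubqln2, which carries ubiquitinated proteins to the proteasome, at 0.25, and Vcp, the segregase that binds ataxin-3, stood at 0.07. The 9 genes whose repeats cause polyglutamine diseases had log2 fold changes between -0.20 and 0.14, and the lowest was that of the calcium channel gene Cacna1a.

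Energy metabolism and translation held no called genes either. Of 80 nuclear genes of the respiratory chain 0 were called by edgeR or DESeq2 and 12 had an unadjusted p under 0.05 (median -0.06), and of 11 mitochondrially encoded genes 0 were called and 0 had an unadjusted p under 0.05 (median 0.02). Of 79 cytosolic ribosomal protein genes 0 were called by either tool while 42 had an unadjusted p under 0.05, against 19.0% of all genes, and 9 passed the adjusted p alone, all of them higher (median 0.16). Their sums were 8709, 8580.3, 8595, 8444 and 7437 CPM at 2 months and 9989, 9286, 9540.3, 8791 and 9275 CPM at 12 months, with the younger replicate 5 lowest and no overlap. Of 44 potassium channel genes Kcnk2, a channel gated by stretch and lipids, rose by 0.61. Another 9 passed the adjusted p alone, 7 with negative fold changes, such as Kcng4 (-0.33) and Kcnma1 (-0.37), and 2 with positive ones, such as Kcnh2 (0.31). Of 33 sodium, calcium and HCN channel genes 0 were called by edgeR and 1 by DESeq2, and 17 had an unadjusted p under 0.05. Of 23 genes of synaptic vesicle release 0 were called by either tool and 8 had an unadjusted p under 0.05 (median 0.00).

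**Figure D3:**
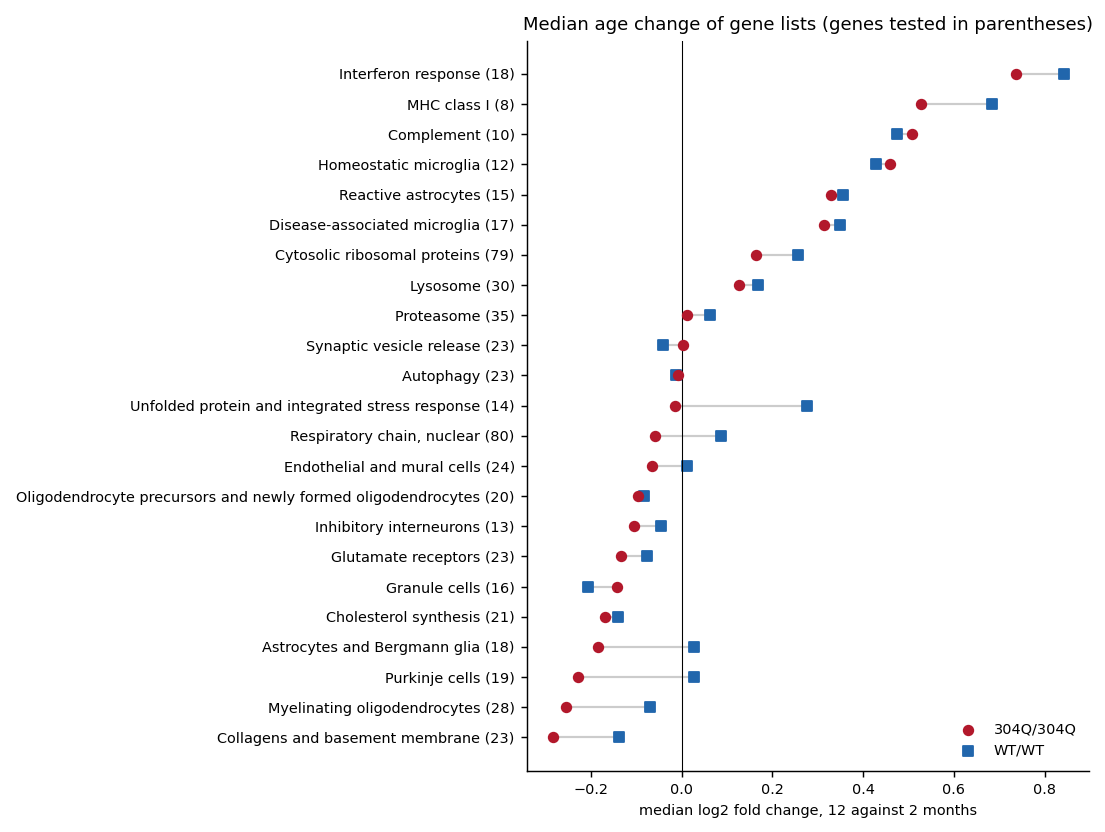
Median log2 fold change, 12 against 2 months, of the tested genes of each list in 304Q/304Q and in WT/WT mice, with a vertical line at no change. The interferon-response list lies at 0.74 in 304Q/304Q and 0.84 in WT/WT mice, and the list of myelinating oligodendrocytes at -0.25 and -0.07.

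Genes that lie over other annotated genes are uncertain, since the library kit keeps the strand but whether the counting used it is not stated. The share of such genes among all those tested was not computed, so the share among called genes cannot be read as high or low. Of the 271 called genes 50.2% overlap another annotated gene on either strand. Among those described, this holds for Irf7 (with Phrf1), Ctsz (Nelfcd), B2m (Patl2), Cx3cr1 (Ttc21a and others), Grm4 (Gm49790), Mobp (Gm38642), Syt16 (Gm29587), Miat (Gm26953), Dbp (Sphk2), Tirap (Srpr), Mirt1 (4833407H14Rik), Dusp5 (AC137853.2), Gpr17 (Lims2) and Tpbg (9330154J02Rik). It also holds for the called genes Cd74, Cdkn1a, Cmtm7, Col13a1, Col5a2, Ctss, Eif2ak2, Gsn, H2-Q4, Irgm2, Itgav, Kcnk2, Mog, Mt2, Muc15, Necab3, Nid1, Parp4, Psme1, Ramp3, Resp18, Sema5a, Snhg11, Tap2, Utrn and the protocadherins.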

How the data were processed

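Cerebellar RNA of 20 mice was sequenced as polyA-enriched stranded libraries. The authors aligned the paired reads to GRCm38 with STAR (2.4.5b in the submitters' notes, another version in the methods) and deposited the raw counts per Ensembl gene from Rsubread, with no normalization. Symbols and positions came from the GENCODE annotation of GRCm38, and promoters from RefSeq.

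All 20 libraries were scaled by TMM and fitted as 4 groups in 1 model by the quasi-likelihood method of edgeR 4.0.16 in R 4.3.3, with P values adjusted over all 12251 genes tested by Benjamini and Hochberg. The common biological coefficient of variation was 0.114. Replicates differed by more than counting noise (chi-square over its degrees of freedom at least 4.41). This is usual for separate mice and does not show which genes counting error affects. On counts simulated for the age change in 304Q/304Q mice, with 12251 genes, the fit called 97 of 100 genes made to differ by 1 on the log2 scale, 100 of 100 made to differ by 2, and 3 of 12051 left equal. Lists are described by counts and medians, with no test over a list. The 304Q/304Q mice and the gene lists were chosen with earlier results of these data known.

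Named genes were the 15 largest rises and the 15 largest falls whose ages do not overlap, the 8 largest positive and the 8 largest negative interactions among called genes, up to 5 called members of each of 52 lists, the most abundant genes of lists that check a tissue, Atxn3, and the 5 most abundant called genes in each direction. Some genes that these rules pick are counted in the totals and lists but not reported here by name. Other list members, Eomes and the genes of the motif search were chosen once their values had been seen.

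The fits were repeated in DESeq2 1.42.0, plain or with 3 surrogate variables from sva 3.50.0, and in edgeR with those variables, with RLE size factors, other count filters, the 10 libraries alone, a replicate block, the adjusted p alone, removal of the GC trend, thinning of counts to 11385380, and each library left out in turn. Leaving out both libraries that stood apart, and the list counts under all alternatives, with the interaction calls of immune lists, were added after seeing the data.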

Additional observations from a re-analysis of the deposited data

Results flagged for a closer look

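In each group of 5 304Q/304Q mice, a value was singled out when the gap between the highest or lowest mouse and its nearest neighbor, divided by the range of the group, was above 0.71, Dixon's limit for 5 values. Chance alone does this in about 1 of 20 groups. Of 346 groups, from the genes named and the sums of the lists, 32 met it (9.25%), 7 through the 2-month replicate 3 and 5 each through the 2-month replicates 4 and 5 and the 12-month replicate 5. These groups are not independent, since genes and sums of the same tissue are flagged together, such as Myh4, Acta1 and the muscle sum. The share therefore cannot be compared directly with that of chance.

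The 2-month replicate 3 was the highest mouse of its age for Ttr (ratio 0.99), Enpp2 (0.942) and the choroid plexus sum (0.978), and also for Ctxn1 (0.785), Ramp3 (0.77) and Tyrobp (0.734), and the lowest for Ighm (0.856). Replicate 5 of the 12-month mice was the highest for Myh4 (0.999), Acta1 (0.977) and the muscle sum (0.993), and the lowest for Tyrobp (0.782) and the interneuron sum (0.738). At 2 months replicate 4 was the highest for Myh4 (1), Acta1 (0.75) and the muscle sum (0.888) and the lowest for Fam163b (0.879) and Dusp5 (0.778). Replicate 1 of that age was the lowest for Tpbg (0.817) and the interferon-response sum (0.84) and the highest for Glul (0.816) and the antioxidant sum (0.769). Replicate 2 was the lowest for Il20rb (0.829) and the highest for Cdkn1a (0.908). Replicate 5 was the highest for Syt16 (0.791), Igfbp4 (0.771) and Ddx3y (0.852) and the lowest for the lysosomal (0.788) and ribosomal (0.792) sums. Among the older mice replicate 2 was the highest for Mal (0.725) and the lowest for Dbp (0.803), and replicate 3 the lowest for Serping1 (0.783) and the highest for Cd74 (0.763).

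The age change differed between the genotypes, by the interaction test, for 22 of 121 genes picked by the naming rules. Many of the 22 were picked because their interaction was among the largest, so this count is partly set by the choice of genes. It cannot be compared with the 0.873% of all genes tested for which the interaction was called. Genes named outside the naming rules, such as Pcp2 and Hapln2, are not counted here. The difference is given on the log2 scale as the 304Q/304Q change minus the WT/WT change. The difference was positive for Onecut2 (2.78), Syt16 (1.55), Miat (1.39), Tirap (1.15), Muc15 (1.08), Igfbp4 (1.02), Itgav (0.84), Kcnk2 (0.63), Sema5a (0.54) and Utrn (0.51). It was negative for Mirt1 (-1.37), Il20rb (-1.33), Dusp5 (-1.24), the noncoding gene Gm15083 (-1.19), which lies over Atp2b2, Rasal1 (-1.16), Rasd2 (-1.15), Plk5 (-1.03), Ptk2b (-0.87), Dbp (-0.78), Igfbp5 (-0.67), Ppp1r1b (-0.65) and Grm4 (-0.61).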

How the results depend on the processing

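The count of 271 genes changed with age in 304Q/304Q mice lay between 238 (without the 2-month replicate 1) and 273 (without the 2-month replicate 5) when a library was left out, with at least 225 genes shared. It was 899 by the adjusted p alone and between 208 and 356 in the other alternatives, lowest with 50 counts asked of every library and highest with no filter, which change the genes tested. In WT/WT mice the count of 295 lay between 206 (without the 2-month replicate 1) and 565 (without the 12-month replicate 1) with a library left out. With surrogate variables it was 190 in DESeq2 and 174 in edgeR, with 153 and 147 of the 295 genes shared, and in plain DESeq2 it was 337. The interaction count of 107 went as low as 78, when the 12-month WT/WT replicate 3 was left out, and as high as 237, when replicate 1 of that group was, and it was 171 in DESeq2. Of the 107 interaction calls 80 were shared in DESeq2 with surrogate variables and 71 in edgeR with them. The cause of these shifts was not tested. With a replicate block the counts were 283, 342 and 156, and replicate numbers did not pair the 304Q/304Q mice (correlation of the deviations of mice with the same number between -0.13 and 0.15). For WT/WT mice the correlation was 0.546 for replicate 1 and 0.274 for replicate 4, each matching its own number best, and between -0.14 and 0.0608 for the other 3.

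Of 91 called genes among the named ones, 79 kept their call in every alternative that tested them. The other 12 lost it with a library left out, with values in the report (for Itgav only the lowest), and none of them changed sign. Some lost it elsewhere too, namely Syt16, Itgav, Oasl2, Mt2 and Ntf3 in edgeR with surrogate variables, Itgav, Oasl2 and Ntf3 in DESeq2 with them, Itgav, Oasl2 and Col5a2 with no filter, Itgav and Col5a2 after thinning, and Syt16, Itgav, Mt2, Utrn and Mobp without both libraries that stood apart. Over all alternatives the values nearest to 0 were 0.66 for Syt16, 0.42 for Itgav, 0.94 for Oasl2 and 0.47 for Utrn. They were -0.58 for Mt2, -0.75 for Ntf3, -0.58 for Col5a2 and -0.47 for Mobp. Among the genes not called, 7 reversed in some alternative. Myh4 went from 4.24 to -4.48 in edgeR with surrogate variables, the only reversed value that was called, to -4.11 in DESeq2 with them, to -5.08 without both libraries that stood apart, and lay between -4.78 and 10.7 with a library left out. Of its normalized counts, 1036 were in the 12-month replicate 5, without which the value was -4.78. Acta1 went from 2.75 to -0.303 without both libraries and lay between -0.291 and 3.23 with 1 left out, and Ttr went from 0.718 to -0.105 in edgeR with surrogate variables and lay between -0.0106 and 5.32. Enpp2 (0.187), Ddx3y (0.0590) and Ptgds (-0.0126) reversed with a library left out, between -0.236 and 1.13, -0.0185 and 0.170, and -0.0651 and 0.0498, and Ptgds was 0.0373 without both. Bcas1, at -0.000732, was 0.00348 in DESeq2, 0.00355 with RLE, 0.00252 in the 304Q/304Q libraries alone, 0.00317 with the mean taken over 20 libraries, 0.00643 with 50 counts asked of each, 0.0235 with the GC trend removed, 0.00498 after thinning, 0.0418 without both libraries, and between -0.0567 and 0.0484 with 1 left out. For these 7 genes the cause was not tested. Scaling by RLE in place of TMM moved the median of all genes by 0.00453 on the log2 scale. The number of mice, 5 per group, limits these tests, and counting noise, which depth sets, weighs most on genes near 50 counts.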

Other observations

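Further lists held few called genes or none. Of 205 tested solute carriers 1 rose and 2 fell (median -0.05). Mcm6, which unwinds DNA for replication, was the 1 gene called among 7 of proliferation and rose by 0.70, from 69.8, 69.7, 71.7, 66.1 and 72.4 to 120.2, 126, 97.2, 109 and 114 normalized counts, with the younger mice in a narrow band below all older ones. Meningeal genes, led by Ptgds, summed to 845, 989, 1061, 941 and 855 CPM at 2 months and to 780.4, 942, 971, 1073 and 951 CPM at 12 months, with overlap. Of 9 tested meningeal genes 0 were called by edgeR, 1 had an unadjusted p under 0.05, and at most 1 was called in any alternative. Of 12 GABA-A receptor genes 0 were called by edgeR or DESeq2 and 4 had an unadjusted p under 0.05 (median -0.13, and -0.32 in WT/WT mice, or -0.12 and -0.11 with the GC trend removed). For 14 genes of antioxidant defence the count was 0 by either tool, 2 had an unadjusted p under 0.05 and the median was 0.00. The 4 tested neurofilament genes had a median of -0.07, the 12 genes of immature neurons one of -0.16 and the 7 of perineuronal nets one of -0.18, and 0 of these were called by edgeR or DESeq2, with 1, 7 and 2 genes at an unadjusted p under 0.05.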
